A study of Mus musculus with 29 samples.

Results

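Mouse epiblast stem cells (EpiSCs) were compared with cells taken from them toward anterior definitive endoderm (ADE) for 4 days on single-colour Agilent expression arrays. All samples titled as EpiSC (3 arrays) or as ADE (4 arrays) were taken, 7 of the 29 arrays of the series. EpiSCs had been made from embryonic stem cells (ESCs) and then held as a stable line in the usual EpiSC medium, and the ADE cultures were started from EpiSCs. Both groups carry the male line given as HRHNG, which the labels name with no further description for these samples. RNA was lysed from whole wells of 6-well plates with no sort, so each array reads every cell in the well. No label says whether the replicates came from separate cultures, so p-values measure only a spread between arrays of a group, which may be technical. That spread was pooled over all 29 arrays in 9 groups, not taken from the 7 arrays alone. For one contrast, 6 more arrays of the series were used: 3 of ESCs in 2i and LIF, and 3 of HRHnG ESCs taken to endoderm for 7 to 8 days with Activin, CHIRON and LIF (Diff).

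EpiSCs resemble the epiblast after implantation: they depend on FGF and Nodal/Activin signalling and express Pou5f1 and Sox2 with early lineage genes. In the embryo, epiblast cells that pass through the anterior primitive streak under high Nodal signalling become definitive endoderm, marked by Sox17, Foxa2, Gata6 and the chemokine receptor Cxcr4. The most anterior of these cells express Hhex, Cer1 and Wnt antagonists and lie beneath the future forebrain, before contributing to foregut, liver and thyroid. The extraembryonic endoderm of the yolk sac shares many of these genes, so that apolipoproteins or Gata6 alone do not tell embryonic from extraembryonic endoderm.

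Levels are given as log2 processed signal relative to the array's 75th percentile, so that 0 is that percentile and a difference of 1 is a doubling. Values in a sentence run in the order EpiSC 1, 2, 3 and ADE 1, 2, 3, 4. Each gene is read from 1 probe, and levels of different probes are not compared. Genes not well above background on any array of a group have only a bound there, and the fold is then given as "at least". Of 16333 genes tested with limma, 6146 (37.6%) passed an adjusted p of 0.05, 2760 higher in ADE (16.9%) and 3386 lower (20.7%). Counts of list members below are to be read against these shares. The median difference over all genes tested was -0.05. Differences of genes that lie near background in 1 group depend on the background correction: with normexp, which adds an offset, 63 of 153 called genes named by rule had a difference more than 1.5 times smaller. The normexp difference is given beside such a gene where its change from EpiSC to ADE is first described.

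**Figure D1:**
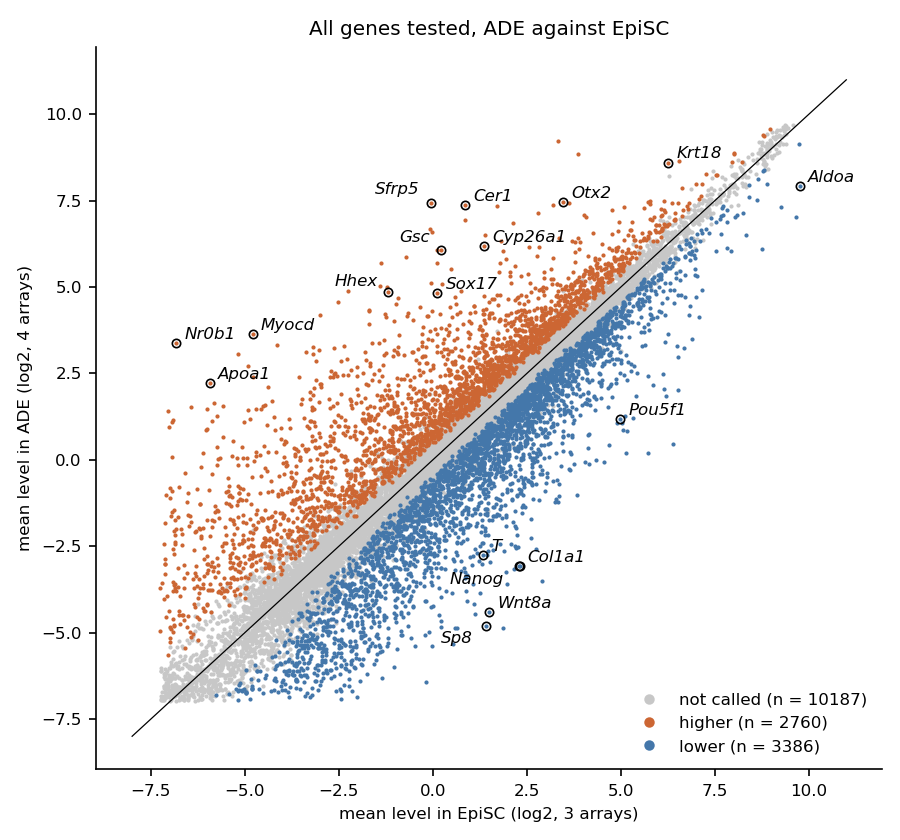
Mean level of each of the 16333 tested genes over the 3 EpiSC arrays (horizontal axis) and the 4 ADE arrays (vertical axis), both as log2 relative to the 75th percentile, with the line of equal levels. Genes called higher in ADE (2760) are orange, those called lower (3386) blue, and circled genes such as Cer1 and Pou5f1 lie far from the line on either side.

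Among the genes that rose, 1774 differed by more than 1 on the log2 scale, 467 by more than 3 and 118 by more than 5. Among those that fell, the counts were 2197, 354 and 21. A further view without the model gave 47.7% of genes with no overlap between the groups, 22.2% with every ADE array above every EpiSC array and 25.5% with every ADE array below. Array to array, levels correlated across genes at 0.969 to 0.988 within EpiSC, 0.971 to 0.985 within ADE and 0.888 to 0.923 between the groups. The share of probes well above background ran from 54.1% to 71.7% and no spot was saturated. The arrays furthest from the others of their group were EpiSC 3 (1032 genes over 1 log2 unit higher and 1033 over 1 lower) and ADE 3 (1346 and 514). Where a single array ended the call of a gene described with its values, or moved its called difference by more than 1.5 times, that array is named beside the gene. Genes that were not called are covered only in part.

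Marker panels were read first as a check of the labels. All 5 markers of anterior endoderm (Hhex, Cer1, Gsc, Otx2 and Sfrp5) and 5 of 6 markers of definitive endoderm were called higher, and all were well above background on the 4 ADE arrays. The log2 summed level of the anterior panel was 3.74 to 4.35 in EpiSC and 9.08 to 9.47 in ADE, and that of the definitive endoderm panel 3.22 to 3.42 and 6.81 to 7.41. The panel of epiblast stem cells, the starting cells, divided: Pou5f1, Nanog, Sox2 and Pou3f1 were called lower, and Otx2, Fgf5 and Dnmt3b higher. Its summed level was 7.15 to 7.35 in EpiSC and 8.62 to 9.16 in ADE, so as a sum it was higher in ADE, not lower. Sums of different panels are not compared, since they come from different probes. All 5 visceral endoderm markers were called higher (-3.57 to -2.90 in EpiSC, 1.82 to 3.57 in ADE), with Afp, Apoa1 and Cubn below background on every EpiSC array. Of 4 parietal endoderm markers, 2 were called higher (1.96 to 2.23 against 4.01 to 4.62), while Thbd was below background throughout. The mesoderm panel of 7 genes had 1 called higher and moved from 2.76 to 3.29 up to 3.12 to 3.65. The neural panel fell for 2 of 4 genes (1.94 to 3.52 against 0.68 to 2.43), with Pax6 below background in ADE. Fibroblast feeder markers were well above background on all EpiSC arrays, and 3 of 5 were called lower (4.06 to 4.68 against 1.95 to 4.14). Of 3 blood and endothelium markers 1 was called higher (-4.17 to -1.82 against -1.63 to 0.02), with Tal1 below background in ADE. Of 3 node markers 1 was called higher (-2.64 to -0.86 against -0.37 to 0.25), with Noto below background in both groups and Shh in ADE. The part of these other cell types in the differences below was not tested, and in whole wells fewer cells of a type and less RNA per cell cannot be told apart.

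**Figure D2:**
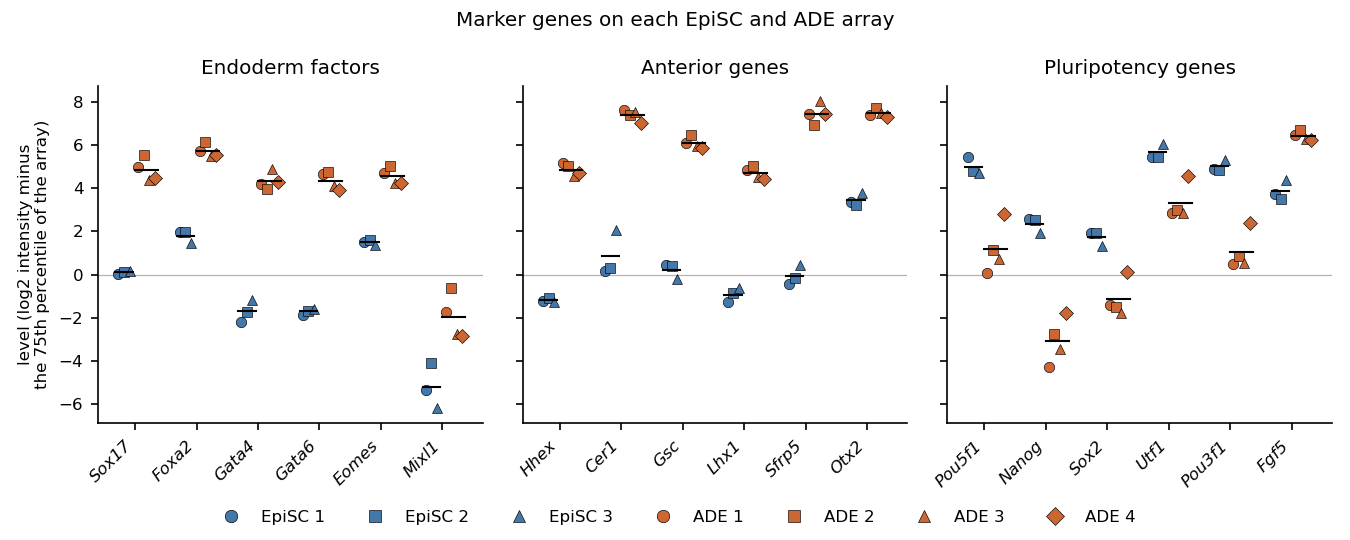
Log2 level relative to the 75th percentile for marker genes on each EpiSC and ADE array, 1 point per array. Sox17, Hhex and Cer1 lie above every EpiSC array on all 4 ADE arrays, and Pou5f1 and Nanog lie below, with ADE 4 the highest of the ADE arrays for both.

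Promoter windows were searched for short motifs of factors that act in this lineage, and 5 are shown to give the letters near the start of genes that rose. For each motif, 1 window was picked from called genes with a large rise because it holds that motif. Each is the 250 bases before a RefSeq start (GRCm38.p6), read 5' to 3' on the gene's strand, with the motif in capitals. Srgn and Rbp4 have 2 windows each, of which 1 is shown. The motif searched for FOXH1, the DNA-binding partner of the Smads under Nodal, was ATCCACA. For forkhead factors such as Foxa2 it was TGTTTAC, and for GATA factors AGATAAG. For T-box factors such as Eomes it was CACACCT, and for SOX and TCF factors, which share a core, ACAAAGG. Each was matched on both strands, and no motif contains another. Srgn encodes the secretory granule proteoglycan serglycin, Rbp4 the plasma carrier of retinol, Sfrp5 and Shisa2 Wnt antagonists, and Nr0b1 the orphan receptor DAX1.
Srgn (chr10:62507758-62508007, minus strand, FOXH1 as its reverse complement): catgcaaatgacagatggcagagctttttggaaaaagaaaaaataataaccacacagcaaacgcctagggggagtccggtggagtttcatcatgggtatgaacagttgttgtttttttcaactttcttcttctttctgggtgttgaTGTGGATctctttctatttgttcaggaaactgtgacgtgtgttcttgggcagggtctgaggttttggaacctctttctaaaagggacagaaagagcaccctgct
Rbp4 (chr19:38125322-38125571, minus strand, forkhead as its reverse complement): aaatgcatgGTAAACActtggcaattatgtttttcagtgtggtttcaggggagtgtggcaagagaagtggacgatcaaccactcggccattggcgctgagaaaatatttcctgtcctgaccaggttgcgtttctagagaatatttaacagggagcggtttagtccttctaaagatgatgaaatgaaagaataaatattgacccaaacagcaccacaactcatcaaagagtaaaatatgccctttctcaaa
Sfrp5 (chr19:42202253-42202502, minus strand, GATA as spelled): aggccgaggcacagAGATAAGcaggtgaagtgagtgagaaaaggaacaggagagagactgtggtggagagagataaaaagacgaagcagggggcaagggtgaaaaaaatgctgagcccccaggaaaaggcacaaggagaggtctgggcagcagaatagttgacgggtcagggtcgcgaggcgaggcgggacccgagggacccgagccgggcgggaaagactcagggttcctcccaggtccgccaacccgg
Shisa2 (chr14:59625031-59625280, plus strand, T-box as spelled): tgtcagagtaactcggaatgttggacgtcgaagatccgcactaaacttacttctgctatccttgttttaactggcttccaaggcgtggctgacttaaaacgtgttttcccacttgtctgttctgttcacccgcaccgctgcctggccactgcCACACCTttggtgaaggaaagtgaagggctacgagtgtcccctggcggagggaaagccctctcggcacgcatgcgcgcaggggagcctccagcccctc
Nr0b1 (chrX:86191525-86191774, plus strand, SOX/TCF as spelled): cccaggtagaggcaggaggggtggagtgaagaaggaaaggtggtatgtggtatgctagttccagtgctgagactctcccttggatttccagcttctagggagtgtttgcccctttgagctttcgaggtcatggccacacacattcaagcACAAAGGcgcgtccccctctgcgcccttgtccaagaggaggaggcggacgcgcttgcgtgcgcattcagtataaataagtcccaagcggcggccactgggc

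The matches begin 104, 241, 236, 98 and 101 bases before the start in that order. Over windows of 300 bases (250 before to 50 after the start), the FOXH1 letters were in 3.12% of the 2212 higher genes with a window and 2.94% of the 2652 lower genes. The forkhead letters were in 2.80% and 3.58%, GATA in 3.62% and 2.38%, T-box in 6.24% and 5.66%, and SOX/TCF in 6.96% and 5.51%. Among all 12939 tested genes with a window the shares were 2.98%, 3.22%, 2.83%, 5.98% and 5.92%. Among all 27025 genes with a RefSeq window they were 3.92%, 4.05%, 3.50%, 6.72% and 6.75%. Windows of Cer1, Gsc, Hhex, Lhx1, Cxcr4, Hnf4a, Apoa1, Pou5f1, Nanog and T held none of the 5. A match is a run of letters, not a measured site.

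Transcription factors of definitive endoderm were higher in ADE almost throughout. Of 21 tested, 17 rose and 1 fell, with a median difference of 4.12 against -0.05 over all genes. Sox17, the factor that specifies definitive endoderm, was at 0.05, 0.13 and 0.19 on the EpiSC arrays and 4.98, 5.52, 4.38 and 4.46 on the ADE arrays. It rose by 4.71 ± 0.41 (SE, adjusted p = 8.4e-09). Foxa2, the pioneer factor of endoderm and axial mesoderm, was at 1.95, 1.96 and 1.47 on the EpiSC arrays and 5.71, 6.12, 5.49 and 5.51 on the ADE arrays. It rose by 3.92 ± 0.74 (SE, adjusted p = 0.00017). For both genes the lowest ADE array lay more than 3 above the highest EpiSC array, and the EpiSC arrays already showed a measurable level.

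Of the GATA factors, Gata6, Gata4 and Gata3 rose. Gata6, which acts early in all endoderm, was at -1.84, -1.66 and -1.58 on the EpiSC arrays and 4.65, 4.76, 4.10 and 3.89 on the ADE arrays and rose by 6.05 ± 0.57 (SE, adjusted p = 2.0e-08). Gata4, its partner in foregut and heart, rose by 6.01 ± 0.38 (SE, adjusted p = 7.7e-11). Gata3, better known from trophoblast and T cells, rose by 4.75 ± 0.89 (SE, adjusted p = 0.00017). No ADE array overlapped an EpiSC array for any of these. Gata5, in contrast, was at 1.03, 0.85 and 1.95 on the EpiSC arrays and 0.54, 0.43, 1.04 and 0.65 on the ADE arrays and was not called (difference -0.61 ± 0.28, adjusted p = 0.095), though it was called lower without EpiSC 2 (-0.83).

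Eomes, the T-box factor that starts the endoderm programme, was at 1.52, 1.61 and 1.36 on the EpiSC arrays and 4.72, 5.03, 4.24 and 4.25 on the ADE arrays and rose by 3.06 ± 0.34 (SE, adjusted p = 2.2e-07). Mixl1, a homeobox gene of the streak that promotes endoderm, was at -5.36, -4.08 and -6.17 on the EpiSC arrays (1 of 3 well above background) and -1.73, -0.60, -2.73 and -2.85 on the ADE arrays. It rose by 3.22 ± 0.79 (SE, adjusted p = 0.0022, normexp difference 1.00), and every ADE array was above every EpiSC array, though only 1 EpiSC array measured it. Hnf4a, a nuclear receptor of liver, gut and visceral endoderm, was at -6.63, -3.53 and -7.33 on the EpiSC arrays (1 of 3 well above background) and 1.57, 2.18, 1.45 and 1.38 on the ADE arrays and rose by 7.48 ± 0.55 (SE, adjusted p = 6.4e-10, normexp difference 3.54). Foxa1 and Foxa3, paralogs of Foxa2, rose by 4.12 ± 0.58 and 4.48 ± 0.42 (normexp difference 2.43). The 1 factor that fell was Klf5, which acts in pluripotent and epithelial cells. It was at 2.56, 2.64 and 3.66 on the EpiSC arrays and 1.27, 1.35, 1.70 and 1.65 on the ADE arrays and fell by 1.46 ± 0.26 (SE, adjusted p = 7.8e-05). Without EpiSC 2 a second factor was called lower, so that count was 2.

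Anterior endoderm and organiser genes showed the largest list median, 4.36, with 14 of 19 called higher and 0 lower. Also 0 were lower at an unadjusted p under 0.05 in limma (share over all genes not computed). Cer1, a secreted antagonist of Nodal, BMP and Wnt, was at 0.16, 0.32 and 2.05 on the EpiSC arrays and 7.61, 7.37, 7.54 and 7.00 on the ADE arrays. It rose by 6.54 ± 0.59 (SE, adjusted p = 1.3e-08). Hhex, a homeobox repressor of the anterior visceral and definitive endoderm, was at -1.22, -1.08 and -1.26 on the EpiSC arrays and 5.16, 5.03, 4.57 and 4.68 on the ADE arrays and rose by 6.05 ± 0.38 (SE, adjusted p = 6.9e-11). EpiSC 3 was the highest EpiSC array for Cer1, but the gap to the lowest ADE array was still wide.

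Gsc, the homeobox repressor of the organiser, was at 0.45, 0.39 and -0.20 on the EpiSC arrays and 6.07, 6.43, 5.93 and 5.84 on the ADE arrays and rose by 5.86 ± 0.48 (SE, adjusted p = 3.4e-09). Lhx1, a LIM homeobox factor needed for head formation, was at -1.29, -0.84 and -0.64 on the EpiSC arrays and 4.83, 5.01, 4.53 and 4.42 on the ADE arrays and rose by 5.62 ± 0.32 (SE, adjusted p = 2.0e-11). The 4 ADE arrays lay close together for both genes, and well above all EpiSC arrays. Otx2, active in epiblast and again in anterior tissues, was at 3.36, 3.23 and 3.76 on the EpiSC arrays and 7.36, 7.70, 7.48 and 7.29 on the ADE arrays and rose by 4.01 ± 0.76 (SE, adjusted p = 0.00018). Hesx1, a homeobox repressor of anterior tissue, rose by 4.46 ± 0.60, and Prdm1, the zinc finger repressor Blimp1, by 4.36 ± 0.32.

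Wnt antagonists made up much of the rest of this list. Sfrp5 was at -0.42, -0.15 and 0.44 on the EpiSC arrays and 7.42, 6.90, 8.01 and 7.44 on the ADE arrays and rose by 7.49 ± 0.53 (SE, adjusted p = 3.7e-10). Dkk1, which blocks the Wnt co-receptors, was at 0.39, 0.72 and 0.34 on the EpiSC arrays and 4.90, 6.02, 5.84 and 5.31 on the ADE arrays and rose by 5.03 ± 0.73 (SE, adjusted p = 7.8e-06). Shisa2, which holds Frizzled and FGF receptors back from the surface, was at -0.78, -0.64 and -0.68 on the EpiSC arrays and 4.33, 4.63, 3.52 and 4.18 on the ADE arrays and rose by 4.86 ± 0.39 (SE, adjusted p = 2.6e-09). All 4 ADE arrays were above all EpiSC arrays for these, and for Sfrp1, which rose by 4.31 ± 0.66. Frzb rose by 2.95 ± 0.81, but its call was lost without EpiSC 3, the lowest of the EpiSC arrays. Receptors in the list rose too: Fzd5 was at -2.23, -2.42 and -2.23 on the EpiSC arrays and 2.85, 2.65, 3.16 and 3.06 on the ADE arrays and rose by 5.22 ± 0.23 (SE, adjusted p = 9.2e-13). Fzd8 rose by 3.72 ± 0.33.

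Members of the list that did not pass included BMP and Nodal regulators. Lefty1, the feedback inhibitor of Nodal, was at 6.94, 6.83 and 5.09 on the EpiSC arrays and 8.18, 8.24, 8.31 and 8.13 on the ADE arrays. Its difference of 1.93 ± 1.03 (SE, adjusted p = 0.15) was not called although no array overlapped, and it was called with normexp, with the 7 arrays fitted alone, with only the array set that holds them and in the authors' series matrix. Chrd and Nog, BMP antagonists of the node, differed by -0.0043 ± 0.28 (SE, adjusted p = 0.99) and -0.22 ± 0.58 (SE, adjusted p = 0.82). Six3, a forebrain factor, differed by -0.45 ± 0.69 (SE, adjusted p = 0.68).

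Surface and secreted proteins of definitive endoderm rose for 17 of 23 genes and fell for 1, with a median of 2.87. The 1 that fell, Cpm (a membrane carboxypeptidase), was no longer called without EpiSC 3. Cxcr4, the receptor of Cxcl12 used to sort definitive endoderm, was at -2.61, -2.33 and -2.97 on the EpiSC arrays and 2.77, 2.81, 2.05 and 2.33 on the ADE arrays. It rose by 5.13 ± 0.47 (SE, adjusted p = 1.5e-08). Kit, the receptor of stem cell factor and the other common sorting marker, was at -0.44, -0.21 and -1.30 on the EpiSC arrays and 4.45, 4.42, 3.98 and 4.13 on the ADE arrays and rose by 4.90 ± 0.39 (SE, adjusted p = 2.0e-09). Spink1, a secreted protease inhibitor, was at 1.45, 1.66 and 2.04 on the EpiSC arrays and 7.44, 7.27, 7.34 and 7.38 on the ADE arrays and rose by 5.64 ± 0.56 (SE, adjusted p = 4.6e-08). For the 3 genes the ADE arrays lay close together and clear of the EpiSC arrays.

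Ctsh, the protease cathepsin H, rose by 5.64 ± 0.50, and Flrt3, a membrane protein of the anterior visceral and definitive endoderm, by 3.27 ± 0.27. Trh, the thyrotropin-releasing hormone, which is also expressed in early endoderm, rose by 3.33 ± 0.90. Nepn, the secreted proteoglycan nephrocan of foregut and midgut endoderm, was at -4.84, -5.51 and -5.17 on the EpiSC arrays (0 of 3 well above background) and 0.27, -0.41, -1.53 and -1.40 on the ADE arrays, at least 18.8-fold higher in ADE (adjusted p = 6.0e-06, normexp difference 1.60). Epcam, an adhesion protein of epithelia and pluripotent cells, was at 1.94, 1.82 and 2.55 on the EpiSC arrays and 2.35, 2.32, 2.72 and 2.44 on the ADE arrays and was not called (difference 0.36 ± 0.28, adjusted p = 0.36).

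**Figure D3:**
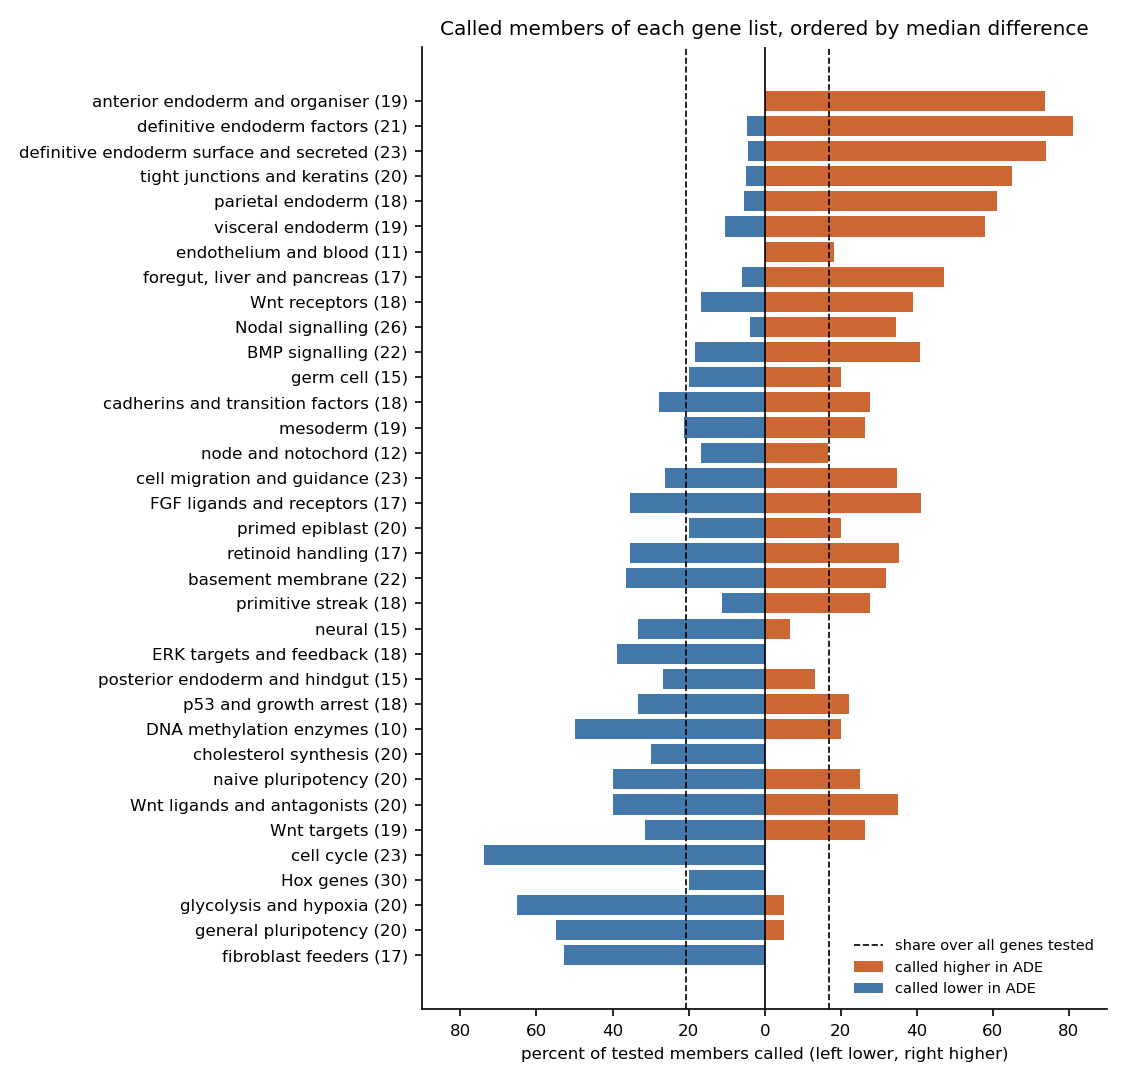
Percent of the tested members of each of 35 gene lists called higher (orange, to the right) or lower in ADE (blue, to the left), with the number tested in brackets and the shares over all genes as dashed lines (16.9% and 20.7%). Lists run from the highest median difference (anterior endoderm, 4.36) to the lowest (fibroblast feeders, -2.30).

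Genes of general pluripotency were lower in ADE for 11 of 20 and higher for 1, with a median of -1.82. Pou5f1 (Oct4) was at 5.43, 4.78 and 4.70 on the EpiSC arrays and 0.09, 1.12, 0.71 and 2.82 on the ADE arrays. It fell by 3.79 ± 0.41 (SE, adjusted p = 1.4e-07). Nanog was at 2.56, 2.51 and 1.92 on the EpiSC arrays and -4.27, -2.76, -3.46 and -1.76 on the ADE arrays and fell by 5.39 ± 0.72 (SE, adjusted p = 3.0e-06, normexp difference -3.41). With the mean of all its probes, the Nanog difference was -2.99. Sox2, which is expressed in epiblast, neural tissue and later foregut, was at 1.94, 1.91 and 1.34 on the EpiSC arrays and -1.41, -1.51, -1.76 and 0.12 on the ADE arrays and fell by 2.87 ± 0.70 (SE, adjusted p = 0.0021). No array overlapped for these, and ADE 4 was the highest ADE array each time.

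The same array was highest for other genes of this list. L1td1, an RNA-binding protein of pluripotent cells, was at 6.93, 7.15 and 6.64 on the EpiSC arrays and 2.19, 3.19, 3.46 and 5.12 on the ADE arrays and fell by 3.41 ± 0.42 (SE, adjusted p = 9.3e-07). Utf1, a chromatin factor of epiblast and germ cells, was at 5.46, 5.45 and 6.04 on the EpiSC arrays and 2.85, 2.99, 2.86 and 4.55 on the ADE arrays and fell by 2.34 ± 0.48 (SE, adjusted p = 0.00043). On these genes ADE 4 lay between the other ADE arrays and the EpiSC arrays. All 5 genes were called lower with ADE 4 left out. Mybl2, a cell cycle factor, fell by 1.84 ± 0.14 and Phc1, a Polycomb subunit, by 2.08 ± 0.42.

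Other pluripotency genes were not called lower. Sall4 was at 3.30, 3.27 and 3.20 on the EpiSC arrays and 4.58, 4.99, 4.03 and 4.29 on the ADE arrays and rose by 1.22 ± 0.27 (SE, adjusted p = 0.0009). Lin28a, the let-7 inhibitor, was at 5.56, 5.21 and 5.12 on the EpiSC arrays and 4.59, 5.24, 4.49 and 4.98 on the ADE arrays (difference -0.46 ± 0.27, adjusted p = 0.19). Zscan10 differed by -0.24 ± 0.30 (SE, adjusted p = 0.6) and Jarid2, of the PRC2 complex, by -0.0029 ± 0.30 (SE, adjusted p = 1.0), and neither was called. The arrays of both groups overlapped for Lin28a, Zscan10 and Jarid2.

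Primed epiblast genes were mixed, with 4 of 20 higher and 4 lower (20% each, against 16.9% and 20.7% of all genes) and a median of -0.18. Fgf5, the ligand that marks epiblast after implantation, was at 3.71, 3.48 and 4.37 on the EpiSC arrays and 6.45, 6.70, 6.29 and 6.24 on the ADE arrays and rose by 2.57 ± 0.73 (SE, adjusted p = 0.0074). Dnmt3b, a de novo DNA methyltransferase, was at 5.82, 5.81 and 5.52 on the EpiSC arrays and 7.46, 7.99, 7.07 and 7.30 on the ADE arrays and rose by 1.74 ± 0.35 (SE, adjusted p = 0.0004). Pou3f1 (Oct6) was at 4.90, 4.84 and 5.32 on the EpiSC arrays and 0.50, 0.87, 0.52 and 2.38 on the ADE arrays and fell by 3.95 ± 0.34 (SE, adjusted p = 7.4e-09). Fgf5 and Dnmt3b were thus higher on every ADE array and Pou3f1 lower on every one, with ADE 4 nearest to EpiSC for Pou3f1. Zic5 fell by 2.73 ± 0.57 (normexp difference -1.31). Fgf15 was at 3.31, 3.09 and -2.22 on the EpiSC arrays and -0.87, -2.67, -1.92 and -0.80 on the ADE arrays, where EpiSC 3 overlapped the ADE arrays, and its call (difference -2.96) was lost without EpiSC 1 or EpiSC 2 and when the 7 arrays were fitted alone, and the difference was -4.76 without EpiSC 3.

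Naive pluripotency genes gave 5 of 20 higher and 8 lower, with a median of -0.72. The higher count was 3 without EpiSC 1. Nr0b1, a nuclear receptor cofactor expressed in naive cells and also in some steroidogenic and endodermal cells, was among the largest rises. It was at -6.26, -7.09 and -7.16 on the EpiSC arrays (0 of 3 well above background) and 3.41, 1.65, 5.01 and 3.41 on the ADE arrays, at least 338-fold higher in ADE (adjusted p = 7.2e-09, normexp difference 5.18). Tet2, a methylcytosine oxidase, rose by 1.34 ± 0.30. Among the genes that fell, Gbx2 was at 2.17, 1.99 and -1.58 on the EpiSC arrays and -1.71, -4.12, -5.44 and -1.71 on the ADE arrays (2 of 4 well above background) and fell by 4.11 ± 1.05 (SE, adjusted p = 0.0032, normexp difference -2.29), and Fbxo15 fell by 4.66 ± 0.39 (normexp difference -2.66). Nr0b1 was thus read on every ADE array and on no EpiSC array, with ADE 3 highest and ADE 2 lowest. Esrrb and Klf4, naive factors that did not pass, differed by -0.21 ± 0.54 (SE, adjusted p = 0.81) and 0.37 ± 0.27 (SE, adjusted p = 0.3).

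**Figure D4:**
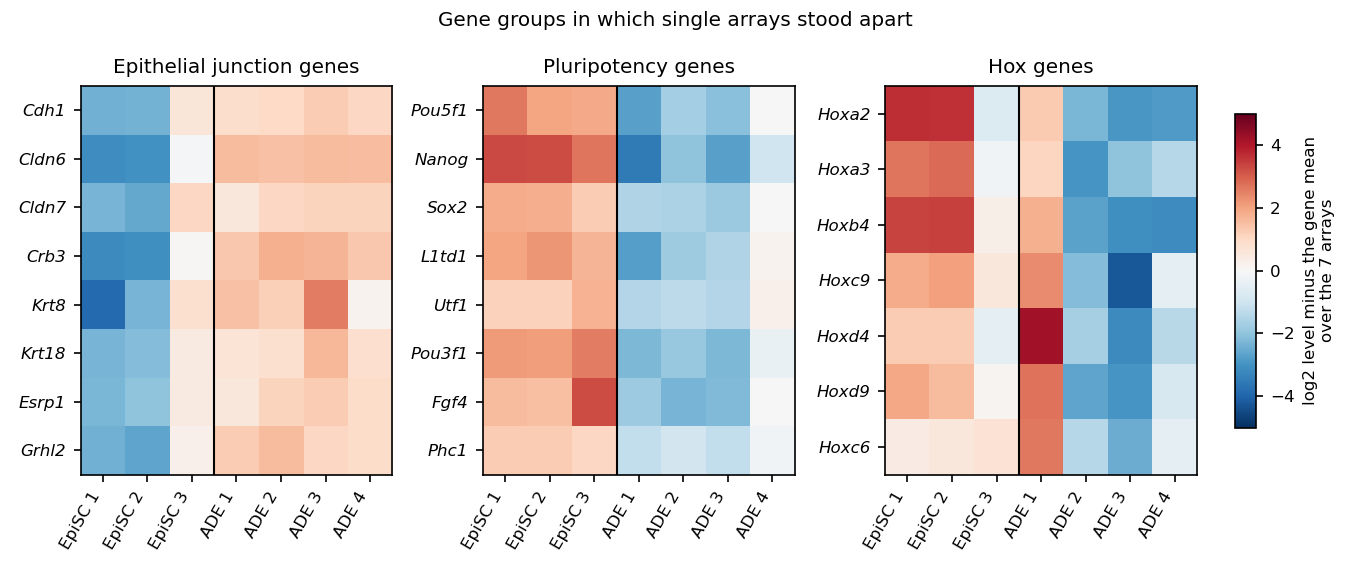
Level minus the gene's mean over the 7 arrays (log2, colour) for epithelial, pluripotency and Hox genes chosen after their values were seen, by array. EpiSC 3 is higher for epithelial genes (Cdh1 4.36 against 1.35 and 1.36 in level), ADE 4 for pluripotency genes (Pou5f1 2.82) and ADE 1 for Hox genes (Hoxb4 -2.0).

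Genes of the primitive streak, the transient site where epiblast cells leave to form mesoderm and endoderm, had a median of -0.36, with 5 of 18 higher and 2 lower. Those that rose (Gsc, Lhx1, Mixl1, Eomes and Fgf8) are shared with endoderm or organiser. Fgf8, the streak ligand needed for cells to migrate, was at 4.09, 4.02 and 1.76 on the EpiSC arrays and 5.05, 5.78, 4.59 and 4.96 on the ADE arrays and rose by 1.80 ± 0.43 (adjusted p = 0.0019), a call lost when the 7 arrays were fitted alone. Without EpiSC 3, the lowest array, the Fgf8 difference was only 1.04, though still called. T (Brachyury), the T-box factor of streak, node and posterior mesoderm, was at 1.68, 1.29 and 1.03 on the EpiSC arrays and -3.08, -0.98, -4.88 and -2.06 on the ADE arrays (3 of 4 well above background). It fell by 4.08 ± 0.93 (SE, adjusted p = 0.0012, normexp difference -2.34). Wnt8a, a ligand of the posterior streak, was at 2.13, 1.98 and 0.34 on the EpiSC arrays and -5.61, -3.90, -4.33 and -3.75 on the ADE arrays (3 of 4 well above background) and fell by 5.88 ± 0.75 (SE, adjusted p = 1.5e-06, normexp difference -3.20). For T the ADE arrays spread widely, with ADE 2 highest, and all lay below the EpiSC arrays. Nodal itself was at 4.71, 4.52 and 4.08 on the EpiSC arrays and 5.0, 5.33, 5.45 and 5.09 on the ADE arrays and was not called (difference 0.78 ± 0.46, adjusted p = 0.2).

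Of 19 mesoderm genes, 5 were higher and 4 lower (26.3% and 21.1%, against 16.9% and 20.7% of all genes), and the median was 0.14. Without EpiSC 1, EpiSC 2 or ADE 3, 2 were lower. Those that rose included heart genes: Myl7, an atrial myosin light chain, was at -5.01, -4.49 and -4.25 on the EpiSC arrays (2 of 3 well above background) and -0.63, -0.31, 0.04 and -0.93 on the ADE arrays and rose by 4.13 ± 0.48 (SE, adjusted p = 4.6e-07, normexp difference 1.71). Hand2, a heart and limb factor, was at -5.08, -3.65 and -5.30 on the EpiSC arrays (1 of 3 well above background) and -1.17, 0.34, -1.71 and -3.22 on the ADE arrays and rose by 3.24 ± 0.62 (SE, adjusted p = 0.0002, normexp difference 1.31). Tbx20 rose by 2.79 ± 0.37 (normexp difference 1.49). Pdgfra, the receptor of paraxial mesoderm and of extraembryonic endoderm, was at -2.57, -2.32 and -3.92 on the EpiSC arrays and -0.0012, 1.80, -0.84 and -1.03 on the ADE arrays and rose by 2.92 ± 0.56 (SE, adjusted p = 0.00021, normexp difference 1.66). ADE 2 was highest for Hand2 and Pdgfra, and no array overlapped for the 4 genes. Not all heart genes rose: Tnnt2 and Nkx2-5 were not called in the main fit or any other. Their differences over the other fits ran from -1.07 to -0.24 and from -0.31 to 0.09. Tcf15, of paraxial mesoderm and primed cells, fell by 3.24 ± 0.53 (SE, adjusted p = 3.7e-05), and Bmp4 fell by 2.44 ± 0.63 (SE, adjusted p = 0.0034). Kdr, the receptor of angioblasts, was at 2.61, 2.52 and 3.13 on the EpiSC arrays and 2.71, 2.77, 3.18 and 2.90 on the ADE arrays and did not pass (difference 0.14 ± 0.20, adjusted p = 0.66).

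Endothelium and blood genes had 2 of 11 higher (18.2%, against 16.9% of all genes) and 0 lower (against 20.7%), with a median of 0.86. In limma 3 were higher and 0 lower at an unadjusted p under 0.05 (share over all genes not computed). Runx1, a blood factor also expressed in other tissues, was at -1.25, -1.03 and -0.84 on the EpiSC arrays and 1.23, 1.45, 2.42 and 1.65 on the ADE arrays and rose by 2.73 ± 0.42 (SE, adjusted p = 1.6e-05). Gata1, the erythroid GATA factor, was at -5.78, -5.06 and -1.96 on the EpiSC arrays (2 of 3 well above background) and -1.74, -0.02, -0.12 and -1.71 on the ADE arrays and rose by 3.37 ± 0.83 (SE, adjusted p = 0.0023, normexp difference 1.30). The higher count was 4 without EpiSC 2. Erg and Hba-x were below background on all 7 arrays, and Cdh5 was well above it on 1 ADE array alone.

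Node and notochord genes gave 2 of 12 higher and 2 lower (16.7% each, against 16.9% and 20.7% of all genes), with a median of 0.08. Bicc1, an RNA-binding protein of the node, was at 1.57, 1.60 and 0.90 on the EpiSC arrays and 4.88, 4.46, 4.71 and 4.96 on the ADE arrays and rose by 3.40 ± 0.36 (SE, adjusted p = 1.3e-07). Foxj1, the master factor of motile cilia, was at -3.01, -2.79 and -1.27 on the EpiSC arrays and -0.40, 0.22, 0.13 and -0.14 on the ADE arrays and rose by 2.31 ± 0.49 (SE, adjusted p = 0.00065, normexp difference 1.32). Every ADE array was above every EpiSC array for both. T, also in this list, fell as given above. Other genes linked to cilia did not all rise with Foxj1. Cfap126 was called lower, with differences of -1.96 to -1.44 over the other fits. Dnah11 was not called (-0.88), but was called lower without EpiSC 3 (-1.87). Rfx3 was not called in any fit (-0.26 to 0.26). Tekt1 was not called (1.12), but was called higher in some other fits, such as with the slide as a block (1.08).

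Neural genes gave 1 of 15 higher and 5 lower, with a median of -0.45. The higher count was 2 without EpiSC 1 and 3 without EpiSC 2. Nes (nestin), an intermediate filament of neural progenitors, was at 5.10, 5.30 and 5.85 on the EpiSC arrays and 1.95, 0.94, 2.03 and 2.42 on the ADE arrays and fell by 3.58 ± 0.45 (SE, adjusted p = 1.3e-06). Sox1, the earliest neural SoxB gene, was at 2.22, 2.16 and 0.31 on the EpiSC arrays and -2.32, -2.08, -1.22 and -1.36 on the ADE arrays and fell by 3.31 ± 0.40 (SE, adjusted p = 8.2e-07). With the mean of all its probes the Sox1 difference was -2.20. Irx3, also expressed in foregut, was the gene that rose, by 3.02 ± 0.56. Olig3 was at 0.69, 0.54 and -7.06 on the EpiSC arrays (2 of 3 well above background) and -6.00, -6.17, -6.69 and -6.78 on the ADE arrays (0 of 4 well above background), at least 8.22-fold lower in ADE (adjusted p = 0.0016, normexp difference -1.53). EpiSC 3 read as low as the ADE arrays, while EpiSC 1 and 2 did not. Its fitted difference of -4.47 was -7.02 without EpiSC 3, and the call was lost when the 7 arrays were fitted alone.

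Posterior endoderm and hindgut genes gave 2 of 15 higher and 4 lower (13.3% and 26.7%, against 16.9% and 20.7% of all genes), with a median of -0.51. The lower count was 1 without EpiSC 1, EpiSC 2 or ADE 2, and 2 without ADE 3. Cdx2, the hindgut homeobox gene, was at 0.65, 0.52 and -1.48 on the EpiSC arrays and -2.10, -3.88, -2.68 and -2.98 on the ADE arrays. Its difference of -2.81 ± 1.02 (SE, adjusted p = 0.033, normexp difference -1.50) lost its call without EpiSC 1, EpiSC 2, ADE 2 or ADE 4. It also lost it with the slide as a block (-2.69, adjusted p = 0.055), with the replicate number as a block (adjusted p = 0.065) and with only the array set that holds these 7 arrays (adjusted p = 0.11). Cldn8, a claudin, was at -6.59, -7.53 and -7.24 on the EpiSC arrays (0 of 3 well above background) and -0.92, -2.61, -1.59 and -2.15 on the ADE arrays, at least 9.28-fold higher in ADE (adjusted p = 4.5e-10, normexp difference 1.31). Fabp1, a gut fatty acid binding protein, was below background on all 7 arrays.

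Foregut, liver and pancreas genes gave 8 of 17 higher and 1 lower with a median of 0.57 (0.54 with genes below background at their bound). The lower gene was Sox2, and without EpiSC 3 the lower count was 2. Tbx1, of pharyngeal endoderm and mesoderm, was at -2.03, -2.0 and -2.51 on the EpiSC arrays and 2.74, 2.21, 2.68 and 2.77 on the ADE arrays and rose by 4.78 ± 0.63 (SE, adjusted p = 2.3e-06). Isl1, of pancreas and foregut endoderm and of heart progenitors, was at -6.09, -4.84 and -5.12 on the EpiSC arrays (1 of 3 well above background) and -0.95, -1.08, -1.03 and -1.22 on the ADE arrays and rose by 4.28 ± 0.46 (SE, adjusted p = 1.6e-07, normexp difference 1.40). Ttr, the thyroxine carrier made by liver and yolk sac, was at -6.62, -4.40 and -6.32 on the EpiSC arrays (1 of 3 well above background) and -0.56, -2.63, -1.48 and -1.43 on the ADE arrays and rose by 4.26 ± 0.61 (SE, adjusted p = 7.1e-06, normexp difference 1.26). No array overlapped for the 3 genes. Not all genes of later organ buds were read: Alb (albumin), Nkx2-1 (thyroid and lung) and Foxp2 were below background on all 7 arrays. Prox1 and Ptf1a were below it on all 4 ADE arrays. In contrast, Pdx1, Nkx6-1 and Pax9 were called higher (2.09, 1.60 and 1.91, normexp differences 0.69, 1.28 and 0.49). Pdx1 lost its call without EpiSC 1, ADE 3 or ADE 4, and Pax9 without EpiSC 2, EpiSC 3, ADE 2 or ADE 3. When the 7 arrays were fitted alone, none of these was called. Afp, a fetal liver and yolk sac protein, was at -6.49, -6.64 and -7.15 on the EpiSC arrays (0 of 3 well above background) and -3.86, -4.59, -4.57 and -4.95 on the ADE arrays (2 of 4 well above background). It was at least 1.45-fold higher in ADE (adjusted p = 0.014, normexp difference 0.43), and the call was lost with normexp, in the authors' series matrix values and without EpiSC 3.

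Visceral endoderm genes, those of the yolk sac epithelium that absorbs and exports lipid and protein, gave 11 of 19 higher and 2 lower, with a median of 1.85 (1.73 with bounds). The lower count was 1 when any single array other than ADE 3 was left out. Apoa1, an apolipoprotein of high-density lipoprotein, was at -6.01, -5.68 and -6.13 on the EpiSC arrays (0 of 3 well above background) and 2.20, 0.92, 2.46 and 3.31 on the ADE arrays, at least 152-fold higher in ADE (adjusted p = 3.6e-11, normexp difference 4.03). Rbp4 was at -1.12, -1.22 and 0.19 on the EpiSC arrays and 5.62, 5.61, 6.72 and 5.52 on the ADE arrays and rose by 6.59 ± 0.47 (SE, adjusted p = 3.8e-10). Amn (amnionless), a part of the cubilin receptor, was at -5.47, -4.54 and -5.22 on the EpiSC arrays (1 of 3 well above background) and 0.21, 0.27, 0.56 and 0.43 on the ADE arrays and rose by 5.44 ± 0.38 (SE, adjusted p = 2.7e-10, normexp difference 2.48). All 4 ADE arrays were high for these, with ADE 3 highest for Rbp4 and ADE 4 for Apoa1. Apoa4 was at -6.29, -5.02 and -5.05 on the EpiSC arrays (0 of 3 well above background) and -0.25, -1.0, -0.85 and -0.03 on the ADE arrays, at least 19.5-fold higher in ADE (adjusted p = 9.4e-08, normexp difference 1.64).

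Genes of protein uptake in that epithelium differed in direction. Lrp2 (megalin), the endocytic receptor of yolk sac and neural tube, was at 3.04, 2.99 and 3.08 on the EpiSC arrays and -0.61, -1.16, -0.68 and 0.98 on the ADE arrays and fell by 3.40 ± 0.45 (SE, adjusted p = 2.4e-06). Dab2, the adaptor for megalin and an early marker of extraembryonic endoderm, was at -1.15, -1.10 and -1.37 on the EpiSC arrays and 0.77, 0.09, -0.91 and 0.08 on the ADE arrays and was not called (difference 1.22 ± 0.90, adjusted p = 0.32). It was called higher with normexp (adjusted p = 0.013), with the 7 arrays fitted alone (0.034) and in the authors' series matrix (0.0047). Cubn was at -5.35, -6.18 and -4.94 on the EpiSC arrays (0 of 3 well above background) and -2.27, -2.02, -2.74 and -2.63 on the ADE arrays, at least 5.89-fold higher in ADE (adjusted p = 0.0011, normexp difference 0.77), and its call was lost with normexp. Apoe and Apoa2 differed by 0.62 ± 0.40 (SE, adjusted p = 0.25) and -0.20 ± 0.17 (SE, adjusted p = 0.37).

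Parietal endoderm genes, those of the cells that lay down the thick membrane around the conceptus, gave 11 of 18 higher and 1 lower, with a median of 1.92. Without EpiSC 3 or ADE 1, 2 were lower. Sox7, a SoxF factor of parietal endoderm and endothelium, was at -5.38, -7.60 and -7.30 on the EpiSC arrays (0 of 3 well above background) and -0.98, -1.36, -0.30 and -0.50 on the ADE arrays, at least 18.9-fold higher in ADE (adjusted p = 5.1e-07, normexp difference 1.78). Pth1r, the parathyroid hormone receptor, was at 1.79, 1.77 and 0.72 on the EpiSC arrays and 4.43, 4.74, 3.99 and 4.27 on the ADE arrays and rose by 2.93 ± 0.48 (SE, adjusted p = 3.8e-05). Col4a1, a basement membrane collagen, was at 1.30, 1.34 and 1.45 on the EpiSC arrays and 4.48, 4.52, 3.87 and 4.06 on the ADE arrays and rose by 2.87 ± 0.75 (SE, adjusted p = 0.0037). Srgn rose by 3.64 ± 0.44 (normexp difference 2.12), and Lamb1, a laminin chain, by 1.92 ± 0.40. Every ADE array lay above every EpiSC array for these 5. Lama1, Plat and Sparc, other classical parietal products, differed by -0.85 ± 0.34 (SE, adjusted p = 0.051), -0.67 ± 0.54 (SE, adjusted p = 0.37) and 0.22 ± 0.31 (SE, adjusted p = 0.64). Lama1 was called lower without EpiSC 3 (-1.16) or ADE 1 (-1.15).

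Of 26 Nodal pathway genes, 9 rose and 1 fell, with a median of 0.48. Cfc1 (Cryptic), an EGF-CFC co-receptor of Nodal, was at 1.65, 1.91 and 1.88 on the EpiSC arrays and 6.21, 7.09, 6.00 and 6.03 on the ADE arrays and rose by 4.52 ± 0.51 (SE, adjusted p = 2.5e-07). Tdgf1 (Cripto), its paralog, was at 1.21, 0.37 and -0.68 on the EpiSC arrays and -0.35, 0.32, -0.17 and 0.05 on the ADE arrays and was not called (difference -0.34 ± 0.37, adjusted p = 0.53). With the mean of all its probes Tdgf1 was called lower, with a difference of -2.32 (adjusted p = 0.00047). Among the ligands, Inhbb was at -1.82, -1.59 and -2.55 on the EpiSC arrays and 2.25, 1.55, 1.90 and 1.76 on the ADE arrays and rose by 3.85 ± 0.69 (SE, adjusted p = 0.00011), and Inhba, which encodes the other activin chain, was at -1.32, -1.58 and 0.31 on the EpiSC arrays and -4.05, -4.35, -3.41 and -3.33 on the ADE arrays (3 of 4 well above background) and fell by 2.92 ± 0.42 (SE, adjusted p = 7.3e-06, normexp difference -1.19). The activin chains thus moved in opposite directions, with no overlap of arrays for either. Dact1, an inhibitor of Wnt and Nodal signalling, rose by 4.06 ± 0.41. Furin and Pcsk6, the proteases that mature Nodal, rose by 1.17 ± 0.29 and 1.20 ± 0.30 (normexp difference 0.76). Smad2 rose by 1.13 ± 0.19, while Smad3, Smad4 and the partner Foxh1 differed by 0.28 ± 0.27 (SE, adjusted p = 0.46), -0.09 ± 0.20 (SE, adjusted p = 0.77) and 0.64 ± 0.35 (SE, adjusted p = 0.17). The lower count was 2 without EpiSC 3, ADE 3 or ADE 4.

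Wnt ligands and antagonists, with other Wnt regulators, gave 7 of 20 higher and 8 lower with a median of -0.77. The antagonists Sfrp5, Dkk1, Shisa2 and Sfrp1 were at the top, as given above. Among the ligands, Wnt4 was at 1.73, 1.81 and 3.01 on the EpiSC arrays and -1.68, -1.94, -1.16 and -1.11 on the ADE arrays and fell by 3.66 ± 0.46 (SE, adjusted p = 1.4e-06), next to the fall of Wnt8a. Rspo1, which amplifies Wnt signalling, fell by 2.92 ± 0.72 (SE, adjusted p = 0.0025, normexp difference -1.53). The antagonist Wif1 was at -1.51, -1.40 and -4.40 on the EpiSC arrays and -7.06, -6.54, -6.15 and -7.0 on the ADE arrays (0 of 4 well above background), at least 5.83-fold lower in ADE (adjusted p = 2.7e-06, normexp difference -0.71), and Shisa3 was at -1.02, -1.04 and -0.33 on the EpiSC arrays and -1.94, -5.15, -5.53 and -3.07 on the ADE arrays (2 of 4 well above background) and fell by 3.12 ± 0.60 (SE, adjusted p = 0.00023, normexp difference -1.03). Wnt antagonists therefore did not all move one way, and ADE 1 was the highest ADE array for Shisa3. Wnt3 differed by -1.01 ± 0.66 (SE, adjusted p = 0.25) and Wnt5b by -0.90 ± 0.38 (SE, adjusted p = 0.064).

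Of 18 Wnt receptors, 7 were higher and 3 lower with a median of 0.50. Lgr5, the R-spondin receptor of stem cells, was at -3.08, -3.27 and -3.30 on the EpiSC arrays and 1.69, 0.69, 1.60 and 1.78 on the ADE arrays and rose by 4.66 ± 0.38 (SE, adjusted p = 3.0e-09, normexp difference 2.89). Ror2, a receptor of Wnt5a, was at 0.85, 0.98 and 0.57 on the EpiSC arrays and 3.08, 3.18, 2.81 and 2.72 on the ADE arrays and rose by 2.15 ± 0.41 (SE, adjusted p = 0.00022). Fzd10, found in streak and neural tissue, was at 3.19, 3.06 and 1.96 on the EpiSC arrays and 0.63, 1.85, 0.29 and 0.0009 on the ADE arrays and fell by 2.05 ± 0.51 (SE, adjusted p = 0.0027). ADE 2 was the lowest ADE array for Lgr5 and the highest for Fzd10, and neither gene overlapped between groups. The co-receptors Lrp5 and Lrp6 differed by 0.14 ± 0.17 (SE, adjusted p = 0.58) and 0.18 ± 0.19 (SE, adjusted p = 0.53).

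Wnt target genes gave 5 of 19 higher and 6 lower, with a median of -0.85, and the lower count was 3 without EpiSC 2 or ADE 4. Sp8 was at 2.42, 2.33 and -0.48 on the EpiSC arrays and -3.61, -5.11, -6.16 and -4.33 on the ADE arrays (2 of 4 well above background) and fell by 6.23 ± 0.86 (SE, adjusted p = 4.1e-06, normexp difference -3.04). Tnfrsf19 (Troy) was at 1.28, 1.09 and 0.37 on the EpiSC arrays and -1.40, -2.78, -2.92 and -2.03 on the ADE arrays and fell by 3.19 ± 0.51 (SE, adjusted p = 2.5e-05, normexp difference -1.98). Rnf43, a ligase that removes Frizzled, rose by 2.83 ± 0.37, and Nkd2, an inhibitor of Dishevelled, by 1.99 ± 0.43. Axin2, the most general target, was at -2.52, -3.57 and -4.73 on the EpiSC arrays and -4.36, -1.48, -6.40 and -6.49 on the ADE arrays (2 of 4 well above background) and was not called (difference -1.08 ± 0.86, adjusted p = 0.36). Its ADE arrays spread widely, with ADE 2 above all EpiSC arrays and ADE 3 and 4 below them. Without ADE 2, Axin2 was called lower (-2.14, adjusted p = 0.017), and with normexp its difference was 0.16. Sp5 and T were also highest on ADE 2 among the ADE arrays, and Lef1 and Sp5 differed by -1.49 ± 0.84 (SE, adjusted p = 0.18) and -0.54 ± 0.94 (SE, adjusted p = 0.71).

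Of 22 BMP genes, 9 were higher and 4 lower with a median of 0.25. The lower count was 1 without EpiSC 1 or EpiSC 2, and 2 without ADE 2 or ADE 3. The ligands Bmp2 and Bmp4 moved apart. Bmp2 was at -0.69, -0.61 and 0.82 on the EpiSC arrays and 3.95, 4.31, 4.11 and 4.23 on the ADE arrays and rose by 4.31 ± 0.51 (SE, adjusted p = 5.1e-07), while Bmp4 was at 2.60, 2.74 and 2.68 on the EpiSC arrays and 1.71, 0.61, -0.94 and -0.45 on the ADE arrays and fell by 2.44 ± 0.63, as given above. For both ligands the groups did not overlap. Bmper, a secreted modulator, was at -3.23, -2.76 and -3.32 on the EpiSC arrays and 2.74, 2.34, 1.72 and 2.39 on the ADE arrays and rose by 5.40 ± 0.65 (SE, adjusted p = 7.8e-07, normexp difference 3.59). Id3, a direct BMP target, was at 1.79, 1.94 and 1.49 on the EpiSC arrays and 4.52, 4.45, 4.65 and 4.26 on the ADE arrays and rose by 2.73 ± 0.40 (SE, adjusted p = 1.1e-05). Smad1 and Smad6 rose by 1.79 ± 0.30 and 1.89 ± 0.39, and Twsg1, a BMP-binding protein, by 2.32 ± 0.26. Other targets did not pass: Id1, which was called higher without ADE 3 (1.65), differed by 1.37 ± 0.57 (SE, adjusted p = 0.06), Msx1 by 0.04 ± 0.30 (SE, adjusted p = 0.94) and Msx2 by -0.33 ± 0.30 (SE, adjusted p = 0.43).

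FGF ligands and receptors gave 7 of 17 higher and 6 lower, with a median of -0.09. Fgf10, a ligand of gut and lung buds, was at -3.52, -3.18 and -3.77 on the EpiSC arrays and 2.06, 2.07, 1.57 and 1.32 on the ADE arrays and rose by 5.24 ± 0.67 (SE, adjusted p = 1.5e-06, normexp difference 3.20). Fgf4, the ligand of pluripotent cells, was at 0.79, 0.71 and 2.44 on the EpiSC arrays and -2.62, -3.12, -3.01 and -0.83 on the ADE arrays and fell by 3.71 ± 0.89 (SE, adjusted p = 0.0018, normexp difference -2.36), with ADE 4 highest in ADE. Receptors changed in both directions. Fgfr1, the main receptor of epiblast, was at 4.95, 5.13 and 4.96 on the EpiSC arrays and 3.19, 2.97, 1.77 and 3.26 on the ADE arrays and fell by 2.22 ± 0.49 (SE, adjusted p = 0.00093). Fgfr3 fell by 2.11 ± 0.46 (normexp difference -1.02), while Fgfr4, of endoderm and liver, rose by 2.36 ± 0.37 (normexp difference 1.13) and Fgfr2 by 0.99 ± 0.19.

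ERK targets and feedback genes gave 7 of 18 lower and 0 higher with a median of -0.51. At an unadjusted p under 0.05 limma gave 8 lower and 0 higher (share over all genes not computed). Etv1 and Etv5, ETS factors downstream of FGF, were among those that fell. Etv1 was at 4.09, 4.02 and 2.99 on the EpiSC arrays and 1.09, 0.23, -0.23 and 1.74 on the ADE arrays and fell by 2.99 ± 0.56 (SE, adjusted p = 0.00017). Etv5 was at 6.19, 6.01 and 5.69 on the EpiSC arrays and 4.47, 4.39, 3.26 and 4.45 on the ADE arrays and fell by 1.82 ± 0.45 (SE, adjusted p = 0.0024). ADE 3 was lowest in both, and no array overlapped. Spry2, a feedback inhibitor, fell by 1.89 ± 0.35. Dusp6, Etv4 and Spry1, also feedback or target genes, differed by -0.14 ± 0.27 (SE, adjusted p = 0.74), -0.25 ± 0.54 (SE, adjusted p = 0.78) and -0.10 ± 0.41 (SE, adjusted p = 0.89).

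Retinoid genes gave 6 of 17 higher and 6 lower with a median of -0.21. Cyp26a1, which degrades retinoic acid, was at 0.84, 0.89 and 2.32 on the EpiSC arrays and 6.48, 6.28, 6.02 and 5.96 on the ADE arrays and rose by 4.83 ± 0.79 (SE, adjusted p = 3.7e-05), while Cyp26b1, its paralog, was at -1.30, -0.86 and -3.66 on the EpiSC arrays and -3.89, -4.89, -6.03 and -5.17 on the ADE arrays (1 of 4 well above background) and fell by 3.06 ± 0.54 (SE, adjusted p = 8.5e-05, normexp difference -0.69). The receptors also moved apart: Rarb was at -2.44, -1.85 and -2.46 on the EpiSC arrays and 2.46, 2.85, 2.34 and 2.19 on the ADE arrays and rose by 4.71 ± 0.46 (SE, adjusted p = 3.7e-08), and Rarg was at 3.47, 3.59 and 3.30 on the EpiSC arrays and -0.30, 0.26, -0.25 and 1.33 on the ADE arrays and fell by 3.20 ± 0.44 (SE, adjusted p = 3.9e-06). None of these 4 overlapped. Crabp2, a cellular binding protein, was at 5.74, 5.81 and 3.86 on the EpiSC arrays and 1.21, -0.47, -0.10 and 0.18 on the ADE arrays and fell by 4.93 ± 0.42 (SE, adjusted p = 4.8e-09). Crabp1 was at 5.24, 5.10 and -1.63 on the EpiSC arrays and -0.73, -3.66, -4.75 and -4.91 on the ADE arrays (2 of 4 well above background) and fell by 6.42 ± 1.16 (SE, adjusted p = 0.00011), with EpiSC 3 below ADE 1. Without EpiSC 3 the Crabp1 difference was -8.69. Stra6, the membrane receptor of Rbp4, rose by 3.07 ± 0.71 (normexp difference 1.69). Aldh1a2, which makes retinoic acid, fell by 2.76 ± 0.70 (normexp difference -0.95).

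Of 30 Hox genes tested, 6 were lower (20%, against 20.7% of all genes tested) and 0 higher (against 16.9%). The median was -0.99 (-0.96 with bounds). At an unadjusted p under 0.05 limma gave 8 lower and 0 higher (share over all genes not computed). Without ADE 1, 16 were lower, so the count depends on that array. Hoxb4 was at -0.40, -0.35 and -3.49 on the EpiSC arrays and -2.0, -6.47, -6.84 and -6.94 on the ADE arrays (1 of 4 well above background) and fell by 4.15 ± 0.89 (SE, adjusted p = 0.00067, normexp difference -1.03). Hoxd4 was at -2.34, -2.33 and -4.03 on the EpiSC arrays and 0.59, -5.26, -6.79 and -4.97 on the ADE arrays (1 of 4 well above background) and was not called (difference -1.21 ± 1.07, adjusted p = 0.42), but was called lower without ADE 1 (-2.77). For both, ADE 1 lay above the 3 other ADE arrays by a wide margin, and for Hoxd4 above all EpiSC arrays too. The median level over the Hox list was -2.29 on ADE 1 and between -6.24 and -4.58 on the others. Hoxa2 fell by 3.90 ± 0.96 (normexp difference -1.08) and Hoxa3 by 3.12 ± 0.82 (normexp difference -1.30), and both and Hoxb4 lost their calls when the 7 arrays were fitted alone. Among mesenchyme and feeder genes, Twist2 and Col3a1 were also highest in ADE on ADE 1. Twist2 was at -0.93, -0.90 and 0.06 on the EpiSC arrays and -0.24, -5.29, -5.89 and -4.31 on the ADE arrays (2 of 4 well above background) and fell by 3.34 ± 0.85 (SE, adjusted p = 0.0032, normexp difference -1.20), a call lost when the 7 arrays were fitted alone. Col3a1 was at 2.10, 2.06 and 0.28 on the EpiSC arrays and 1.33, -2.27, -3.0 and -1.95 on the ADE arrays and was not called (difference -2.95 ± 1.20, adjusted p = 0.056), but was called lower without ADE 1 (-3.89), with normexp (-1.96) and in the authors' series matrix (-2.29). Tagln and Thy1, in contrast, were highest in ADE on ADE 4, and the summed feeder panel was 3.35, 1.95, 4.14 and 2.89 on ADE 1 to 4. The part of such cells in the Hox levels was not tested.

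Of 20 genes of tight junctions and keratins, 13 were higher and 1 lower, with a median of 2.24. EpiSC 3 moved with this result: the median level of the list was 0.07 and 0.16 on EpiSC 1 and 2, and 2.92 on EpiSC 3. Cldn6, a claudin of early epithelia, was at -0.84, -0.74 and 2.22 on the EpiSC arrays and 3.86, 3.72, 3.87 and 3.84 on the ADE arrays and rose by 3.61 ± 0.66 (SE, adjusted p = 0.00013). Crb3, of the apical polarity complex, was at -2.95, -2.82 and 0.32 on the EpiSC arrays and 1.60, 2.04, 1.95 and 1.61 on the ADE arrays and rose by 3.61 ± 0.55 (SE, adjusted p = 1.7e-05). F11r, a junctional adhesion molecule, was at 3.49, 3.43 and 4.40 on the EpiSC arrays and 5.94, 5.77, 6.27 and 6.09 on the ADE arrays and rose by 2.24 ± 0.26 (SE, adjusted p = 5.4e-07). EpiSC 3 was the highest EpiSC array in each, yet below every ADE array. Krt18 rose by 2.34 ± 0.46 and its partner Krt8 was at 0.70, 2.23 and 5.38 on the EpiSC arrays and 6.01, 5.78, 7.11 and 4.76 on the ADE arrays, where EpiSC 3 exceeded ADE 4. The Krt8 difference was 3.14 ± 0.70 (adjusted p = 0.00098), and 4.84 without EpiSC 3 and ADE 4. Its call was lost when the 7 arrays were fitted alone (adjusted p = 0.056) and on the slide of EpiSC 2 and 3 alone (2.12, adjusted p = 0.059). The 1 that fell, Cldn3, was not called without EpiSC 3. Tjp1 and Krt19 were not called, with differences of -0.19 ± 0.19 (SE, adjusted p = 0.48) and -0.75 ± 0.76 (SE, adjusted p = 0.5).

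Of 18 cadherins and transition factors, 5 rose and 5 fell, with a median of 0.20, and they divided by role. Cdh1 (E-cadherin) was at 1.35, 1.36 and 4.36 on the EpiSC arrays and 4.61, 4.72, 5.0 and 4.77 on the ADE arrays and rose by 2.42 ± 0.53 (SE, adjusted p = 0.00083). Ovol2, a repressor of mesenchymal genes, was at 2.36, 2.27 and 2.94 on the EpiSC arrays and 5.39, 5.57, 5.32 and 5.26 on the ADE arrays and rose by 2.87 ± 0.21 (SE, adjusted p = 4.0e-10). Grhl2, Esrp1 and Esrp2, epithelial regulators of transcription and splicing, rose by 2.81 ± 0.61, 2.26 ± 0.44 and 2.84 ± 0.39. Zeb2, a repressor of Cdh1, was at 0.32, 0.24 and -0.59 on the EpiSC arrays and -2.52, -4.13, -4.35 and -3.50 on the ADE arrays (3 of 4 well above background) and fell by 3.62 ± 0.38 (SE, adjusted p = 9.3e-08, normexp difference -1.74). Zeb1 fell by 2.97 ± 0.56 and Vim (vimentin) by 2.61 ± 0.55. All 5 that rose were epithelial and the 5 that fell were transition factors or mesenchymal genes. Snai1, a repressor that acts at the streak, was at -1.58, -1.45 and -0.20 on the EpiSC arrays and -0.79, -0.42, -2.36 and -1.90 on the ADE arrays and was not called (difference -0.29 ± 0.48, adjusted p = 0.7). Cdh2 (N-cadherin) was at 3.87, 4.10 and 2.45 on the EpiSC arrays and 5.06, 5.74, 4.21 and 4.48 on the ADE arrays. Its difference of 1.40 ± 0.60 (SE, adjusted p = 0.072) missed the threshold although no array overlapped, and it was called under normexp, with only the array set that holds these 7 arrays and in the authors' series matrix. Without EpiSC 3 the Cdh2 difference was 0.89 and was not called.

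Basement membrane genes gave 7 of 22 higher and 8 lower with a median of -0.28. Beside Col4a1 and Lamb1, Lama5 was at 5.20, 4.46 and 5.11 on the EpiSC arrays and 6.34, 7.05, 6.60 and 6.51 on the ADE arrays and rose by 1.70 ± 0.23 (SE, adjusted p = 3.9e-06). Hspg2 (perlecan) was at 3.08, 3.17 and 3.23 on the EpiSC arrays and 1.29, 1.49, 1.45 and 1.5 on the ADE arrays and fell by 1.73 ± 0.19 (SE, adjusted p = 1.5e-07). Col18a1 was at 5.04, 5.09 and 4.45 on the EpiSC arrays and 2.11, 1.91, 1.58 and 3.27 on the ADE arrays and fell by 2.64 ± 0.61 (SE, adjusted p = 0.0014). Lama4 was at -1.13, -1.22 and -1.96 on the EpiSC arrays and -6.20, -5.01, -6.85 and -3.33 on the ADE arrays (1 of 4 well above background) and fell by 3.91 ± 0.73 (SE, adjusted p = 0.00017, normexp difference -0.92). Laminin chains therefore changed in both directions, where Lamb2 fell by 1.72 ± 0.24 and Lamc1 rose by 1.17 ± 0.27. ADE 4 was the highest ADE array for Col18a1 and Lama4. Fn1 (fibronectin) differed by -0.26 ± 0.42 (SE, adjusted p = 0.7).

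Genes typical of fibroblast feeders were lower in ADE: 9 of 17 fell and 0 rose, with a median of -2.30. At an unadjusted p under 0.05 limma gave 11 lower and 0 higher (share over all genes not computed). Col1a1 was at 2.60, 2.28 and 1.96 on the EpiSC arrays and -1.43, -3.39, -4.65 and -2.81 on the ADE arrays and fell by 5.35 ± 0.99 (SE, adjusted p = 0.00015). Tagln, an actin-binding protein of smooth muscle and fibroblasts, was at 6.28, 6.26 and 6.99 on the EpiSC arrays and 2.90, 2.49, 2.64 and 3.86 on the ADE arrays and fell by 3.54 ± 0.44 (SE, adjusted p = 1.0e-06). Thy1, a surface protein of fibroblasts and T cells, was at -0.17, -0.19 and 0.86 on the EpiSC arrays and -4.06, -4.84, -3.59 and -2.30 on the ADE arrays (3 of 4 well above background) and fell by 3.87 ± 0.74 (SE, adjusted p = 0.00021, normexp difference -1.77). All ADE arrays were below all EpiSC arrays for the 3 genes. Col1a2, another collagen chain, was at 3.75, 3.86 and 3.27 on the EpiSC arrays and 2.74, 1.81, 4.11 and 2.72 on the ADE arrays and was not called (difference -0.78 ± 0.37, adjusted p = 0.11), though it was called lower without ADE 3 (-1.20). Acta2, the smooth muscle actin, was at 4.62, 4.77 and 3.74 on the EpiSC arrays and 3.76, 1.91, 4.86 and 4.37 on the ADE arrays and was not called either (difference -0.65 ± 0.65, adjusted p = 0.49). ADE 3 was highest in ADE for both. The labels do not say whether either culture held feeders, and the part of such cells was not tested.

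Proliferation genes were lower by modest amounts. Of 23 cell cycle genes, 17 fell and 0 rose, with a median of -0.94. At an unadjusted p under 0.05 limma gave 18 lower and 0 higher (share over all genes not computed). Ccnb2, a mitotic cyclin, was at 5.79, 5.68 and 6.11 on the EpiSC arrays and 4.07, 3.96, 4.10 and 4.26 on the ADE arrays and fell by 1.76 ± 0.17 (SE, adjusted p = 2.2e-08). Ccnd3, a G1 cyclin, was at 5.83, 5.71 and 5.89 on the EpiSC arrays and 4.19, 3.99, 4.34 and 4.23 on the ADE arrays and fell by 1.62 ± 0.30 (SE, adjusted p = 0.00013). Mcm6, of the replicative helicase, was at 7.15, 7.03 and 6.85 on the EpiSC arrays and 6.02, 6.33, 5.83 and 6.11 on the ADE arrays and fell by 0.94 ± 0.15 (SE, adjusted p = 2.3e-05). Mki67 fell by 0.79 ± 0.19 and Top2a by 1.32 ± 0.21. The arrays of each group lay close together for Ccnb2, Ccnd3 and Mcm6, with no overlap. Ccnd2 fell by 2.15 ± 0.77 but was not called without EpiSC 1, EpiSC 2, ADE 3 or ADE 4, with the replicate number as a block or with only the array set that holds these 7 arrays. Aurka and Tyms differed by -0.31 ± 0.18 (SE, adjusted p = 0.2) and -0.04 ± 0.15 (SE, adjusted p = 0.87).

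Of 18 p53 and growth arrest genes, 4 were higher and 6 lower with a median of -0.52. Cdkn2b (p15), an inhibitor of G1 kinases, was at -0.32, -0.31 and -0.002 on the EpiSC arrays and 3.10, 2.10, 3.71 and 3.16 on the ADE arrays and rose by 3.23 ± 0.38 (SE, adjusted p = 5.9e-07). Its neighbour Cdkn2a was at 0.93, 1.39 and 1.74 on the EpiSC arrays and 3.22, 1.80, 4.89 and 4.10 on the ADE arrays and rose by 2.16 ± 0.43 (SE, adjusted p = 0.00031), with ADE 2 close to EpiSC. Gadd45a was at 2.38, 2.22 and 3.31 on the EpiSC arrays and -0.83, -0.74, -0.51 and -0.68 on the ADE arrays and fell by 3.33 ± 0.35 (SE, adjusted p = 1.1e-07). Gdf15 was at 0.09, 0.05 and 0.49 on the EpiSC arrays and -4.95, -3.06, -4.12 and -3.77 on the ADE arrays (3 of 4 well above background) and fell by 4.19 ± 0.63 (SE, adjusted p = 1.2e-05, normexp difference -1.86). Fas rose by 3.01 ± 0.52 (normexp difference 1.42). Cdkn1a (p21) and Mdm2, the best known p53 targets, differed by 0.58 ± 0.30 (SE, adjusted p = 0.14) and -0.50 ± 0.21 (SE, adjusted p = 0.067).

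Glycolysis and hypoxia genes fell for 13 of 20, with 1 higher and a median of -1.5. The 1 higher, Hk1, was not called without EpiSC 3 or ADE 2, with median scaling, with only the array set that holds these 7 arrays or in the authors' series matrix. Pgk1, a glycolytic enzyme, was at 8.71, 8.64 and 8.95 on the EpiSC arrays and 6.08, 5.88, 6.17 and 6.23 on the ADE arrays and fell by 2.68 ± 0.32 (SE, adjusted p = 6.4e-07). Slc2a1, the main glucose transporter, was at 6.93, 6.79 and 7.24 on the EpiSC arrays and 4.33, 5.14, 4.74 and 4.66 on the ADE arrays and fell by 2.27 ± 0.40 (SE, adjusted p = 7.5e-05). Bnip3, a mitochondrial protein induced by hypoxia, was at 6.59, 6.80 and 6.13 on the EpiSC arrays and 3.13, 3.22, 3.75 and 3.13 on the ADE arrays and fell by 3.20 ± 0.58 (SE, adjusted p = 0.00013). The ADE arrays lay together below the EpiSC arrays in each. Pfkp fell by 3.76 ± 0.50 (normexp difference -2.48), where the mean of all its probes gave -2.05, and Pdk1 fell by 3.22 ± 0.40. Ldha and Eno1 differed by 0.23 ± 0.26 (SE, adjusted p = 0.55) and 0.06 ± 0.41 (SE, adjusted p = 0.93) and were not called.

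Cholesterol synthesis genes fell for 6 of 20 and rose for 0, with a median of -0.64. At an unadjusted p under 0.05 limma gave 12 lower and 0 higher (share over all genes not computed). With normexp 10 were lower, and with the 7 arrays fitted alone 12 were. Pmvk, of the mevalonate pathway, was at 6.43, 6.54 and 6.72 on the EpiSC arrays and 5.26, 5.80, 5.43 and 5.37 on the ADE arrays and fell by 1.1 ± 0.23 (SE, adjusted p = 0.00062). Lss and Insig1 fell by 1.14 ± 0.36 and 1.04 ± 0.29.

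Of 10 DNA methylation enzymes, 2 were higher (Dnmt3b and Tet2) and 5 lower, with a median of -0.60. Dnmt3a was at 2.61, 2.55 and 2.45 on the EpiSC arrays and 1.05, 1.17, 1.33 and 0.91 on the ADE arrays and fell by 1.42 ± 0.38 (SE, adjusted p = 0.0043), against the rise of Dnmt3b. Tet1 was at 2.59, 2.81 and 1.63 on the EpiSC arrays and 1.00, 1.52, 0.17 and 1.09 on the ADE arrays and fell by 1.40 ± 0.36 (SE, adjusted p = 0.0037), against the rise of Tet2. The maintenance enzyme Dnmt1 differed by -0.47 ± 0.23 (SE, adjusted p = 0.11).

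Germ cell genes gave 3 of 15 higher and 3 lower (20% each, against 16.9% and 20.7% of all genes), with a median of 0.24. The higher count was 1 without EpiSC 1, EpiSC 2, ADE 1 or ADE 3, and the lower count 1 without EpiSC 3 or ADE 2. Prdm1 rose as given above. Sycp3, of the meiotic chromosome axis, was at 3.72, 3.67 and 5.09 on the EpiSC arrays and -0.96, -0.03, 0.33 and 0.20 on the ADE arrays and fell by 4.27 ± 0.47 (SE, adjusted p = 1.9e-07). Ddx4, Dazl and Stra8 were below background on all 7 arrays.

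Migration and guidance genes gave 8 of 23 higher and 6 lower with a median of 0.02. Beside Cxcr4, its relative Ackr3 was at -1.27, -1.22 and -2.94 on the EpiSC arrays and 3.01, 3.35, 3.28 and 2.84 on the ADE arrays and rose by 4.93 ± 0.52 (SE, adjusted p = 1.1e-07). Both bind Cxcl12, which was at 1.05, 1.09 and 0.22 on the EpiSC arrays and 0.87, -0.79, 0.31 and 0.10 on the ADE arrays and was not called (difference -0.66 ± 0.65, adjusted p = 0.47). Ntn1 (netrin) was at -1.98, -1.62 and -2.44 on the EpiSC arrays and 2.42, 2.54, 2.39 and 2.35 on the ADE arrays and rose by 4.44 ± 0.52 (SE, adjusted p = 5.1e-07). Robo1 and its ligand Slit2 rose by 3.44 ± 0.25 and 2.94 ± 0.71, and Plxna2 by 4.52 ± 0.62. Efnb2, an ephrin, was at 2.12, 2.43 and 1.99 on the EpiSC arrays and -0.44, -1.01, -0.11 and 0.10 on the ADE arrays and fell by 2.54 ± 0.35 (SE, adjusted p = 4.3e-06), while Efna5 rose by 2.41 ± 0.24. Every ADE array lay on the same side of the EpiSC arrays for each gene that changed here.

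Outside these lists the largest rises included secreted proteins. Bpifa1, a secreted airway protein, was at -6.47, -7.50 and -7.18 on the EpiSC arrays (0 of 3 well above background) and 1.16, -1.56, 4.06 and 2.06 on the ADE arrays, at least 87.9-fold higher in ADE (adjusted p = 6.8e-09, normexp difference 3.6). Grp, a gut neuropeptide, was at -6.32, -7.38 and -7.10 on the EpiSC arrays (0 of 3 well above background) and 0.74, -0.29, 2.78 and 1.16 on the ADE arrays, at least 70-fold higher in ADE (adjusted p = 1.6e-10, normexp difference 3.13). Myocd (myocardin), a coactivator of smooth and heart muscle genes, was at -5.49, -4.89 and -4.00 on the EpiSC arrays (2 of 3 well above background) and 3.26, 3.77, 3.87 and 3.68 on the ADE arrays and rose by 8.44 ± 0.77 (SE, adjusted p = 1.4e-08, normexp difference 5.27). The rule for the largest rises required a gene to be well above background on all 4 ADE arrays, with no overlap between the groups. Both therefore hold for these genes by choice. Coch (cochlin) was at -6.35, -5.17 and -4.00 on the EpiSC arrays (1 of 3 well above background) and 3.09, 2.90, 3.11 and 3.11 on the ADE arrays and rose by 8.23 ± 0.42 (SE, adjusted p = 3.7e-12, normexp difference 4.64), with the ADE arrays close together. Gfi1, a zinc finger repressor of blood cells, was at -4.06, -3.78 and -6.92 on the EpiSC arrays (1 of 3 well above background) and 2.97, 3.44, 2.01 and 2.45 on the ADE arrays and rose by 7.63 ± 0.75 (SE, adjusted p = 4.2e-08, normexp difference 4.18). Ambp and Proc, plasma proteins made by liver, rose by 7.46 ± 0.89 and 7.19 ± 0.58.

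The aldo-keto reductases Akr1c12 and Akr1c19 rose together. Akr1c12 was at -6.40, -5.90 and -7.02 on the EpiSC arrays (0 of 3 well above background) and 1.69, 1.40, 1.74 and 1.31 on the ADE arrays, at least 94.6-fold higher in ADE (adjusted p = 6.6e-11, normexp difference 3.41). Akr1c19 was at -6.26, -4.77 and -7.01 on the EpiSC arrays (1 of 3 well above background) and 1.64, 1.86, 1.29 and 1.13 on the ADE arrays and rose by 7.49 ± 0.48 (SE, adjusted p = 8.3e-11, normexp difference 3.27). These are close members of a family, and whether their probes read each other was not tested. Stfa1, a cystatin of a multigene cluster, was at least 73.4-fold higher in ADE (adjusted p = 1.1e-11, normexp difference 3.34), and Rnf39 was at least 63.3-fold higher in ADE (adjusted p = 9.3e-11, normexp difference 3.08).

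Ccn2, Ankrd1 and Ccn4 were among the largest falls outside the lists. Ccn2 (connective tissue growth factor) was at 5.33, 5.41 and 6.45 on the EpiSC arrays and -0.45, 0.39, -0.61 and 1.48 on the ADE arrays and fell by 5.53 ± 0.61 (SE, adjusted p = 2.3e-07). Ankrd1 was at -1.35, -1.10 and 1.86 on the EpiSC arrays and -7.06, -6.54, -5.17 and -6.96 on the ADE arrays (0 of 4 well above background), at least 26.4-fold lower in ADE (adjusted p = 1.0e-06, normexp difference -1.92). Ccn4 was at 0.28, 0.11 and 1.22 on the EpiSC arrays and -4.56, -6.02, -6.75 and -3.98 on the ADE arrays (2 of 4 well above background) and fell by 5.86 ± 0.61 (SE, adjusted p = 9.4e-08, normexp difference -2.28). The rule for the largest falls kept only genes without overlap, so no ADE array reached an EpiSC array for any of the 3 by choice. Chac1 and Nupr1, genes of the amino acid and unfolded protein stress response, fell by 5.94 ± 0.88 and 5.32 ± 0.64 (normexp difference -3.36). Cxcl10, an interferon-induced chemokine, was at 1.12, 1.22 and 3.56 on the EpiSC arrays and -4.58, -2.85, -4.18 and -2.78 on the ADE arrays and fell by 5.56 ± 0.85 (SE, adjusted p = 1.6e-05, normexp difference -3.25). Emp1, a membrane protein, fell by 5.51 ± 0.75 (normexp difference -2.58).

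The step from EpiSC to ADE was set against the other route to endoderm in the series, from ESCs to Diff, as the difference of both differences in 1 model. The contrasts share no array, and each lies within its own array set. Of 16333 genes, 6002 (36.7%) passed, 2432 with the more positive change toward ADE (14.9%) and 3570 with the more negative (21.9%). With median scaling, 4901 passed, and the share on the positive side was 26.4% in place of 40.5%, where the median of all genes was -0.45 in place of -0.06. The routes differ in starting cells, medium, days, array set and scanner software version, which cannot be told apart here. Whether HRHNG and HRHnG name the same line was not settled.

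The anterior genes Gsc, Hhex and Cer1 differed between the routes. Gsc changed by 5.86 ± 0.48 toward ADE and by -5.05 ± 0.52 toward Diff, a difference of 10.91 ± 0.71 (SE, adjusted p = 1.2e-10). Hhex changed by 6.05 ± 0.38 and 0.53 ± 0.40, a difference of 5.52 ± 0.55 (SE, adjusted p = 6.7e-08). Cer1 changed by 6.54 ± 0.59 and 0.71 ± 0.64, a difference of 5.83 ± 0.87 (SE, adjusted p = 1.4e-05). For Gsc the routes ran in opposite directions, while Hhex and Cer1 changed little toward Diff. Sfrp1, Rab38, Fam81a and Nr0b1 were the other 4 of the 5 largest on this side, with differences of 9.91 ± 0.97 (SE, adjusted p = 4.3e-08), 9.83 ± 0.98 (SE, adjusted p = 6.3e-08), 10.54 ± 0.79 (SE, adjusted p = 1.3e-09) and 10.56 ± 1.30 (SE, adjusted p = 1.2e-06).

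General endoderm factors rose on both routes. Sox17 changed by 4.71 ± 0.41 toward ADE and 11.46 ± 0.44 toward Diff, a difference of -6.74 ± 0.61 (SE, adjusted p = 1.5e-08). Foxa2 changed by 3.92 ± 0.74 and 9.87 ± 0.79, a difference of -5.96 ± 1.08 (SE, adjusted p = 0.00013). Gata6 changed by 6.05 ± 0.57 and 9.94 ± 0.61, a difference of -3.89 ± 0.83 (SE, adjusted p = 0.00071). The smaller rise toward ADE of Sox17 and Foxa2 began from measured levels in EpiSC, whereas Sox17 was not well above background on any ESC array. For genes below background on every starting array (Sox17, Foxa1, Dab2, Cxcl10, Il33 and Apoa1 in ESC; Fam81a, Nr0b1, Apoa1 and Apoa4 in EpiSC) the fitted change is no measured size. Hnf4a, Gata4 and Foxa1 did not pass, with differences of 1.42 ± 0.81 (SE, adjusted p = 0.18), -0.60 ± 0.56 (SE, adjusted p = 0.43) and -0.01 ± 0.85 (SE, adjusted p = 0.99).

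The genes Lrp2, Dab2 and Col4a1, all expressed in extraembryonic endoderm, lay on the other side. Lrp2 changed by -3.40 ± 0.45 toward ADE and 9.40 ± 0.48 toward Diff, a difference of -12.80 ± 0.66 (SE, adjusted p = 3.5e-12). Dab2 changed by 1.22 ± 0.90 and 12.61 ± 0.96, a difference of -11.40 ± 1.32 (SE, adjusted p = 5.1e-07). Col4a1 changed by 2.87 ± 0.75 and 13.00 ± 0.80, a difference of -10.13 ± 1.09 (SE, adjusted p = 1.9e-07). Lrp2 fell toward ADE and rose toward Diff. Cxcl10, Il33 and Nrg1 completed the 5 largest, with differences of -12.56 ± 1.25 (SE, adjusted p = 5.5e-08), -11.03 ± 0.95 (SE, adjusted p = 8.8e-09) and -10.74 ± 0.91 (SE, adjusted p = 7.5e-09). The apolipoproteins Apoa1 and Apoa4 lay on the positive side, with differences of 6.38 ± 0.71 (SE, adjusted p = 2.9e-07) and 4.34 ± 0.75 (SE, adjusted p = 8.3e-05).

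**Figure D5:**
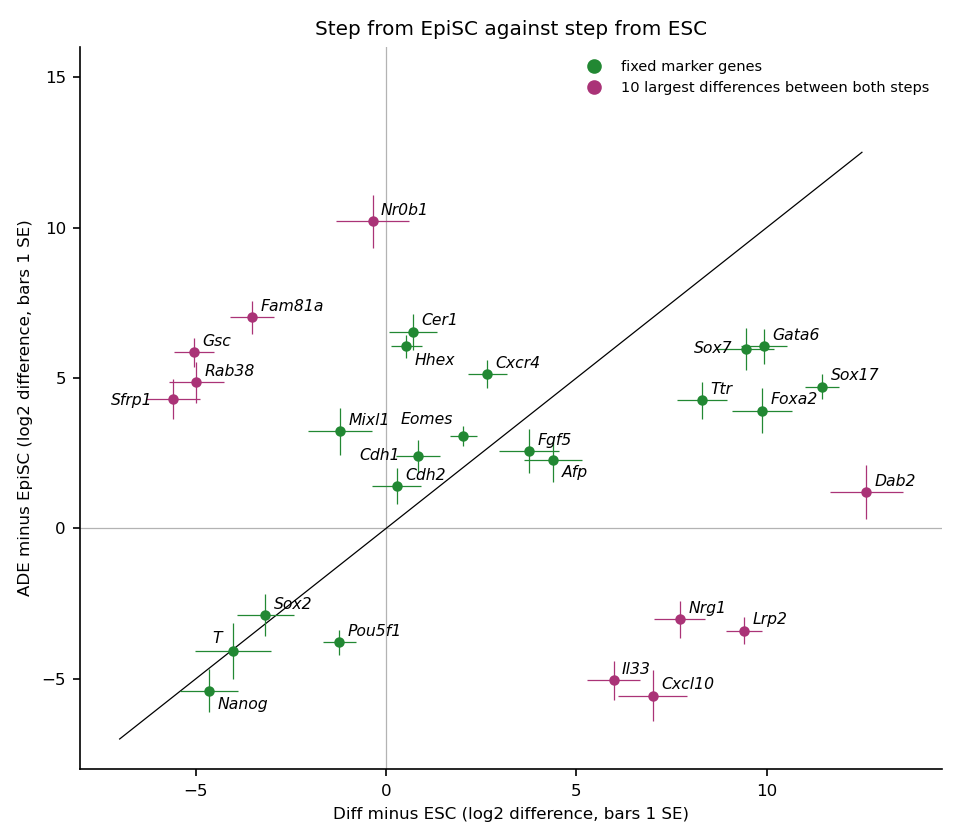
Change from EpiSC to ADE (vertical) against change from ESC to Diff (horizontal), both log2 with bars of 1 SE, for marker genes (green) and the 10 genes with the largest difference between both steps (purple), with the line of equal change. Gsc (5.86 and -5.05) and Lrp2 (-3.40 and 9.40) lie in opposite quadrants, and Sox17, Foxa2 and Gata6 rose on both routes.

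The ADE arrays were alike in the size of the whole change. Over the 2760 genes that rose, the median distance from the EpiSC mean was 1.33, 1.39, 1.33 and 1.22 on ADE 1 to 4, and over the 3386 that fell -1.26, -1.21, -1.38 and -1.18. ADE 4 was thus the nearest to EpiSC in both sets, though these medians come from the genes the fit called. EpiSC 1 with ADE 1 and 2 lay on one slide and the other 4 arrays on another, which allows the change to be read within each. With the slide as a block limma called 6755 genes, and with EpiSC and ADE arrays of a single slide it called 2855 on the slide of EpiSC 1 and 4025 on the other, of which 2791 and 3933 were among the 6146. Within slides, the median difference was 4.59 and 3.84 for endoderm factors, 4.92 and 3.89 for anterior genes, and -1.88 and -1.29 for general pluripotency. Feeder genes gave -1.83 and -2.46, cell cycle genes -0.88 and -0.93, and glycolysis genes -1.57 and -1.50. Hox genes gave -0.20 on the slide that held ADE 1 and -1.58 on the other. The lists of posterior endoderm, streak, node, primed, germ cell, FGF and cadherin genes changed the sign of their median between slides, none of them a list with a large median.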

How the data were processed

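The spot intensities used here were deposited by the authors as scanner output; per the file headers they come from Agilent Feature Extraction 12.0.1.1 (11.0.1.1 for the arrays of ESC and Diff), on probes designed against mm9, while the submitters' processing notes name version 9.1. The software had already subtracted background from the processed signal. The authors also deposited a series matrix on a log2 scale with equal column medians, whose log base, background treatment and method are not stated; it was used only as an alternative.

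Control spots (leaving 59305) and irregular spots were left out, and spots of a probe were averaged (55681 probes). Of these, 27636 got a gene symbol by matching the accession in the scanner output to a RefSeq gene reference. Each level is log2 of the processed signal minus the array's 75th percentile. Where a gene had several probes, the one with the highest mean signal across the series was kept. Tests covered 16333 of 20956 genes, those whose probe the scanner software marked as well above background throughout 1 or more of the 9 groups. Group means were fitted to all 29 arrays with limma 3.58.1 in R 4.3.3, with a threshold of 0.05 on Benjamini-Hochberg adjusted p-values. A gene below background on all arrays of a group is given as a bound, taken from the higher of its own signal and the lowest signal of any probe well above background on that array. Errors after ± are SE of the fit. The fit was tested on simulated data.

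Named by rule were the 15 largest rises and the 15 largest falls without overlap, up to 4 called genes of each of 35 lists, 19 marker genes and the 10 largest differences between both steps. The rises and falls were taken only from called genes well above background on all arrays of the higher group. Other list members were named after their values were seen, and some genes are not reported here. The members, lists and rule were chosen with earlier results of these data known.

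Alternatives were normexp (offset 50, on the median spot and background signals, since mean signals were not used), median and quantile scaling, other filters, other array sets, the mean of all probes, replicate and slide blocks, the authors' series matrix and each array left out. Same-numbered EpiSC and ADE arrays deviated together at r = 0.306, -0.124 and 0.315 across genes. EpiSC 1 and ADE 1 shared a slide, as did EpiSC 3 and ADE 3, while EpiSC 2 and ADE 2 did not. These values therefore cannot show whether cultures were paired, and the numbers were not taken as pairs in the main fit. Fits on a single slide, and fits without EpiSC 3 and ADE 4, were chosen after seeing the data. Promoter windows come from RefSeq (GRCm38.p6). Tables and figures were made with Python 3.11.15, pandas 2.3.3, NumPy 2.4.6 and Matplotlib 3.10.9.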

Additional observations from a re-analysis of the deposited data

Results flagged for a closer look

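In the ADE group, 1 array stood far from the other 3 in 11 of 193 named genes and list medians examined (5.70%), by Dixon's test at the 95% level, where chance gives about 1 in 20. ADE 1 was high for Hox genes, with Hoxb4 at -2.0 (the others -6.94 to -6.47) and Hoxa2 at -2.77 (-7.0 to -6.38), and low for the median of the endothelium and blood list at -2.40 (-1.73 to -1.64). ADE 2 was low for Lgr5 at 0.69 (1.60 to 1.78), for Coch at 2.90 (3.09 to 3.11), for the median of the posterior endoderm list at -4.57 (-3.25 to -2.98) and for that of the cadherin list at 0.43 (1.24 to 1.29). ADE 3 was low for Etv5 at 3.26 (4.39 to 4.47) and Ambp at 2.85 (3.43 to 3.51) and high for Rbp4 at 6.72 (5.52 to 5.62). ADE 4 was high for Pfkp at -1.82 (-2.77 to -2.71).

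The 10 genes with the largest difference between the step from EpiSC to ADE and the step from ESC to Diff, tested in limma as a difference of differences, lay on both sides. The step to ADE was the more positive for Gsc by 10.91, Nr0b1 by 10.56, Fam81a by 10.54, Sfrp1 by 9.91 and Rab38 by 9.83. It was the more negative for Lrp2 (-12.80), Cxcl10 (-12.56), Dab2 (-11.40), Il33 (-11.03) and Nrg1 (-10.74).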

How the results depend on the processing

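The count of 6146 genes called between ADE and EpiSC was 4406 with median scaling, 5721 with normexp, 6482 with quantile scaling, 6535 with the 7 arrays alone and 5280 of 13093 in the authors' table; normexp moved the median of all genes from -0.05 to 0.06. With the replicate number as a block it was 5671, and 152 of 155 named genes kept their side of the threshold (Ccnd2, Cdx2 and Tfap2c did not). Leaving out 1 array gave 5188 to 5687. Arrays of slide 5 alone gave 2855 and of slide 6 alone 4025, with fewer arrays a group, and leaving out EpiSC 3 and ADE 4 together gave 4913. For the difference between both steps, 6002 became 5327 to 5795 with 1 array left out, 5592 with the replicate block, 3602 with slide 5 alone and 4811 with slide 6 alone. Some genes not called, such as Axin2, changed sign, but no called gene named by rule reversed its direction in any of these fits. Among 305 called list members, 170 kept their call in all of them, and 3 (Gata2, Pax9 and Tet3) reversed in at least 1. Calls of Afp, Ccnd2, Cdx2, Dnmt3l, Fdft1, Fgf15, Hk1, Lamb3, Lss, Tex19.1 and Tfap2c were lost in several, and that of Krt8 with the 7 arrays alone and with slide 6 alone. Of genes given as not called, Col3a1, Dab2, Dnmt1, Foxh1, Id1, Lama1, Lef1, Lefty1, Mdm2, Nodal, Wnt3 and Wnt5b passed under 1 or more other normalizations, array sets or blocks, Tdgf1 with the mean of all probes, and Axin2, Col1a2, Gata5 and Hoxd4 with 1 array left out. For 42 of 121 called named genes the authors' table gave a difference more than 1.5 times smaller. The authors' table holds the probe of only 13093 of the 16333 genes tested, and list counts from it cover only the members present. There the FGF list had 3 higher and 3 lower and the DNA methylation list 0 higher in limma. Unadjusted counts were not computed there. Dnmt3b and Tet2, called higher in the main fit, were absent from it, as were Fgf8, Fgf18, Fgfr1, Fgfr2, Fgfr3 and Fgfr4. The feeder list had 1 higher there. The causes were not tested. Arrays have no read depth: 154 genes called higher and 196 called lower were below background on every array of a group, and their fitted differences are not sizes.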
